A study of Mus musculus with 24 samples.

Results

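The nuclear genes for the subunits of mitochondrial oxidative phosphorylation were followed in bone marrow-derived macrophages (BMDMs) through a first exposure to LPS, the tolerized state and the loss of Irg1. The genes were taken by name: every protein-coding row of the count table whose GENCODE M21 symbol began with Ndufa, Ndufb, Ndufc, Ndufs or Ndufv and a digit (complex I), with Uqcr (complex III), with Cox4 to Cox8 (complex IV) or with Atp5 (ATP synthase). This gave 80 of 22165 genes, 37 with Nduf symbols, 8 with Uqcr, 18 with Cox and 17 with Atp5 symbols. Genes are grouped below by symbol, so that Ndufa4, a subunit of complex IV, is counted with the complex I genes. Of the 80 genes, 75 passed the filter on low counts and were tested. The 5 others were Cox4i2, with 31 counts in all and at most 0.382 CPM in any library, and Cox7b2, Cox8b, Cox8c and Uqcrc1, which were listed at 0 in all 24 libraries. Uqcrc1 encodes a core subunit that cells with a respiratory chain use, so its entry is reported only as a listed 0.

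The series held 24 libraries in 8 groups of 3 independently grown cultures. BMDMs came from C57BL/6N wild-type (WT) mice and from Irg1-/- mice aged 8 to 20 weeks, and were differentiated for 7 days with M-CSF at 20 ng/ml. In each genotype, cells were left unstimulated (Unstim), were given LPS at 100 ng/ml for 3 h (LPS 3h, after a mock first step), were given LPS for 24 h (LPS 24h), or were given LPS for 24 h, rested for 1 h in fresh medium and given LPS again for 3 h (LPS 24h->LPS 3h, the tolerized state). Irg1, listed as Acod1, encodes the enzyme that makes itaconate, and Irg1-/- mice lack it in all cells, so the genotypes already differed before the BMDMs were grown. The spread between cultures is that between dishes of cells, and the labels do not tie a culture to an individual mouse.

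The respiratory chain passes electrons from NADH through complex I, ubiquinone, complex III, cytochrome c and complex IV to oxygen. Protons are pumped across the inner mitochondrial membrane at complexes I, III and IV, and the ATP synthase uses their return to make ATP. Most subunits are encoded in the nucleus and imported, while a small core of complexes I, III and IV and of the ATP synthase is encoded by mitochondrial DNA, so that each complex is built from the products of both genomes. Macrophages given LPS are known to shift toward glycolysis, and itaconate is known to inhibit succinate dehydrogenase, which is complex II. Complex II carries no member here and is given with the other pathway genes.

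Libraries were made from mRNA 3′ ends with oligo-dT primers, so that a transcript gives reads near its end and values are not divided by gene length. Counts assigned to genes ran from 3927378 to 20430359 per library, with a median of 11539055. Acod1, the check of the genotype labels, had 15639 to 28057 CPM in the WT LPS 3h libraries, against at most 26.4 CPM in any Irg1-/- library. All 8 macrophage markers were present, at a summed level of 3315 to 9828 CPM. The 7 neutrophil markers summed to 497 to 672 CPM in WT Unstim and 543 to 639 CPM at WT LPS 3h, and to 71.5 to 230 CPM at WT LPS 24h and 70.7 to 148 CPM in the WT tolerized cells, and the Irg1-/- groups gave 385 to 619, 392 to 574, 142 to 212 and 64.7 to 103 CPM in turn. That list therefore moved with the comparisons of late against early groups, and its part in the results was not tested. S100a9 was its highest gene, and 3 of its 7 genes had a mean below 1 CPM. T cell, B cell, dendritic and erythroid marker lists summed to at most 11.3 CPM. The 3 fibroblast markers summed to 65.0 to 146 CPM (Col1a1 highest), with overlapping ranges in the 4 WT groups. In Irg1-/- cells the fibroblast markers summed to 84.3 to 146 CPM at LPS 3h, above the late groups. These had 68.8 to 73.6 CPM at LPS 24h and 65.0 to 77.8 CPM in the tolerized cells, and Unstim had 73.0 to 94.9 CPM. The part of this list in the results was not tested either. A prefix in the labels puts the libraries in 4 sets, taken here as library pools: all 6 Unstim libraries were in set 4, WT cultures 1, 2 and 3 given LPS were in sets 1, 2 and 4, and the Irg1-/- libraries given LPS were in sets 1 to 3. Set and treatment therefore cannot be told apart in the Irg1-/- comparisons of LPS with Unstim and of LPS 24h with LPS 3h. Culture 3 had the lowest median level of the subunits in 7 of 8 groups, and at WT LPS 24h it was the lowest of the 3 cultures for 67 of 75 subunits (89.3%, against 41.2% of all genes tested).

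The subunits together took, on average, a smaller share of gene counts at LPS 3h than in the other groups of the same genotype. In the 3 WT Unstim libraries they took 0.657, 0.675 and 0.726% of gene counts, and at WT LPS 3h 0.498, 0.432 and 0.340%. At WT LPS 24h the shares were 0.853, 0.815 and 0.544%, and in the WT tolerized cells 0.708, 0.837 and 0.438%. The Irg1-/- libraries gave 0.841, 0.905 and 0.566% in Unstim, 0.459, 0.456 and 0.360% at LPS 3h, 0.713, 0.840 and 0.676% at LPS 24h and 0.677, 0.733 and 0.577% in the tolerized cells. In each genotype the 3 LPS 3h libraries lay below all Unstim and all LPS 24h libraries, and in WT cells they overlapped the tolerized range through culture 3. The fall in share went with a change in what filled the libraries. Genes called higher at WT LPS 3h took 19.8% of gene counts in Unstim and 60.6% at LPS 3h, and in Irg1-/- cells the genes called higher there went from 22.2% to 62.4%. These genes were chosen by the same comparison in the same libraries, so their larger share is in part a result of the choice.

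How levels are scaled therefore set the direction of the whole family at 3 h. TMM scaling, used below, sets the middle of the genes level between libraries, and its factors were 1.30 to 1.34 in WT Unstim and 0.680 to 0.704 at WT LPS 3h. On that scale the median log2 fold change of the 75 subunits from Unstim to LPS 3h was 0.06 in WT cells (all genes tested, -0.18) and -0.04 in Irg1-/- cells (all genes, -0.20). With library totals alone as the scale it was -0.87 in WT cells (all genes, -1.10) and -0.98 in Irg1-/- cells (all genes, -1.12). On either scale the median subunit stood slightly above the median gene, and the difference of scale was a shift of all genes. With the library set as a term, on the TMM scale, it stood below, at -0.39 in WT cells (all genes, -0.25) and -0.66 in Irg1-/- cells (all genes, -0.29). That term rests on WT culture 3, the only culture given LPS in set 4, and cannot be told apart from it. Total RNA per cell was not measured, and in bulk libraries fewer cells of a type and less RNA per cell cannot be told apart.

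**Figure D1:**
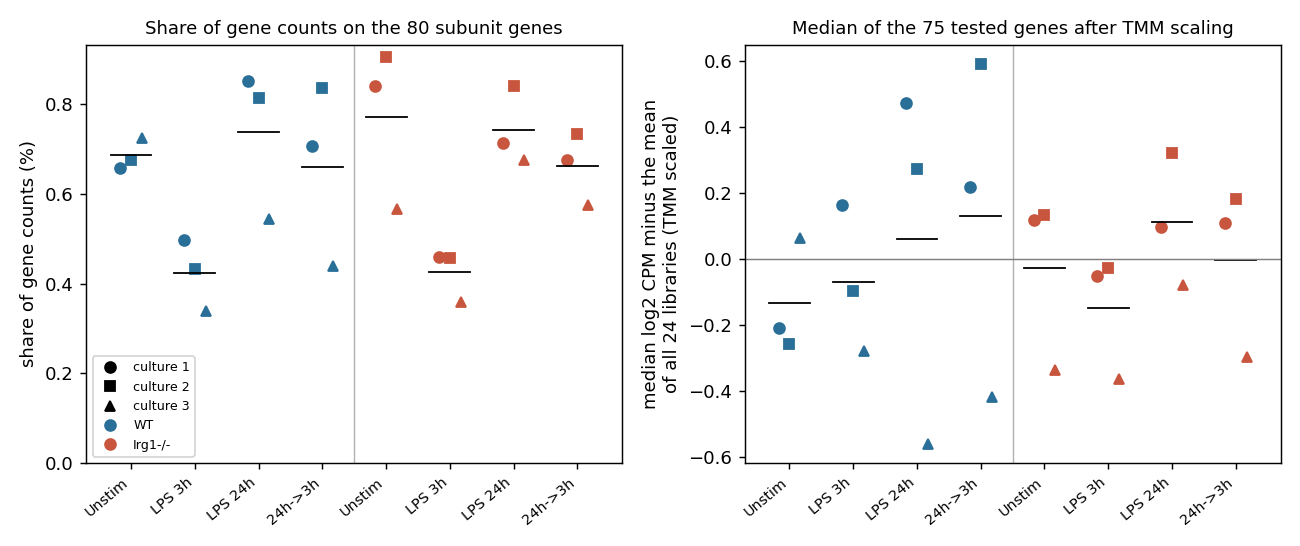
Left, the share of gene counts (percent) taken by the 80 subunit genes in each of 24 libraries; right, the median over the 75 tested genes of log2 CPM minus that gene's mean over all libraries, after TMM scaling. Lines are group means over 3 cultures. The LPS 3h groups have the lowest mean shares (0.423% in WT and 0.425% in Irg1-/- cells), with WT tolerized culture 3 among their values (0.438%), while after scaling the cultures of a group lie farther apart than the groups do, with culture 3 lowest in 7 of 8 groups.

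Few individual subunits were called on the TMM scale. A gene was called where edgeR's quasi-likelihood test, adjusted over 11878 genes by the Benjamini-Hochberg method, gave an adjusted p below 0.05. The median standard error of a subunit's log2 fold change was 0.35. From WT Unstim to LPS 3h no subunit was called in either direction by edgeR, while 15.8% of all genes tested were called higher and 16.3% lower. At an unadjusted p below 0.05 there were 4 such subunits, and DESeq2 called 2. From WT Unstim to LPS 24h 3 subunits were called higher and 0 lower (all genes, 9.25% and 6.98%). From WT LPS 3h to LPS 24h 5 were higher and 0 lower (all genes, 16.8% and 15.5%). In the WT tolerized cells 1 subunit was higher than at LPS 3h and 0 were lower (all genes, 12.4% and 13.1%), and 0 were higher and 2 lower than at LPS 24h (all genes, 2.46% and 1.53%).

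Irg1-/- cells gave low counts as well. From Unstim to LPS 3h 3 subunits were called higher and 4 lower (all genes, 17% and 18.9%), and from Unstim to LPS 24h 0 were higher and 1 lower (all genes, 7.31% and 6.38%). From LPS 3h to LPS 24h 3 were higher and 1 lower (all genes, 18.2% and 16.9%). In the tolerized cells 1 was higher and 1 lower than at LPS 3h (all genes, 13.1% and 14.1%). Between tolerized cells and LPS 24h edgeR called 0, with 1 at an unadjusted p below 0.05 and 0 by DESeq2 (all genes, 3.44% higher and 1.7% lower). Over the 10 comparisons between treatments, 13 subunits were called at least once and 62 never. The same pooled count over all genes is not given here, for these numbers or for those by complex below. In Irg1-/- LPS 3h against Unstim alone, 4260 of 11878 genes were called. LPS 3h was set against Unstim and against LPS 24h in both genotypes. There, on the TMM scale, the share of subunits called lay below that of all genes. With library totals as the scale it lay above that of all genes in Irg1-/- cells, and in WT cells for LPS 24h against LPS 3h. The comparisons share groups, so their counts are not independent.

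The median subunit stood slightly above the median gene from Unstim to LPS 24h, at 0.27 against 0.00 in WT cells and 0.20 against -0.00 in Irg1-/- cells on the log2 scale. Within set 4, where WT culture 3 can be set beside the Unstim libraries, the median subunit was at -0.42 and the direction was the opposite. With the set as a term in the fit the medians turned to -0.22 in WT cells (all genes, -0.07) and -0.58 in Irg1-/- cells (all genes, -0.07). Among libraries given LPS, set 4 held WT culture 3 alone, so the set term cannot be told apart from that culture. For the Irg1-/- cells the term was carried over from it. From WT LPS 3h to LPS 24h the medians within sets 1, 2 and 4 were 0.33, 0.29 and -0.33. The shift of the family as a whole was therefore smaller than the distance between cultures. The within-group standard deviation of log2 CPM had a median of 0.45 over the subunits, against 0.40 over genes of like level. The points farthest from 0 that were not called, such as Ndufa4l2 and Cox6b2, were genes with mean levels of 0.217 and 0.295 CPM.

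**Figure D2:**
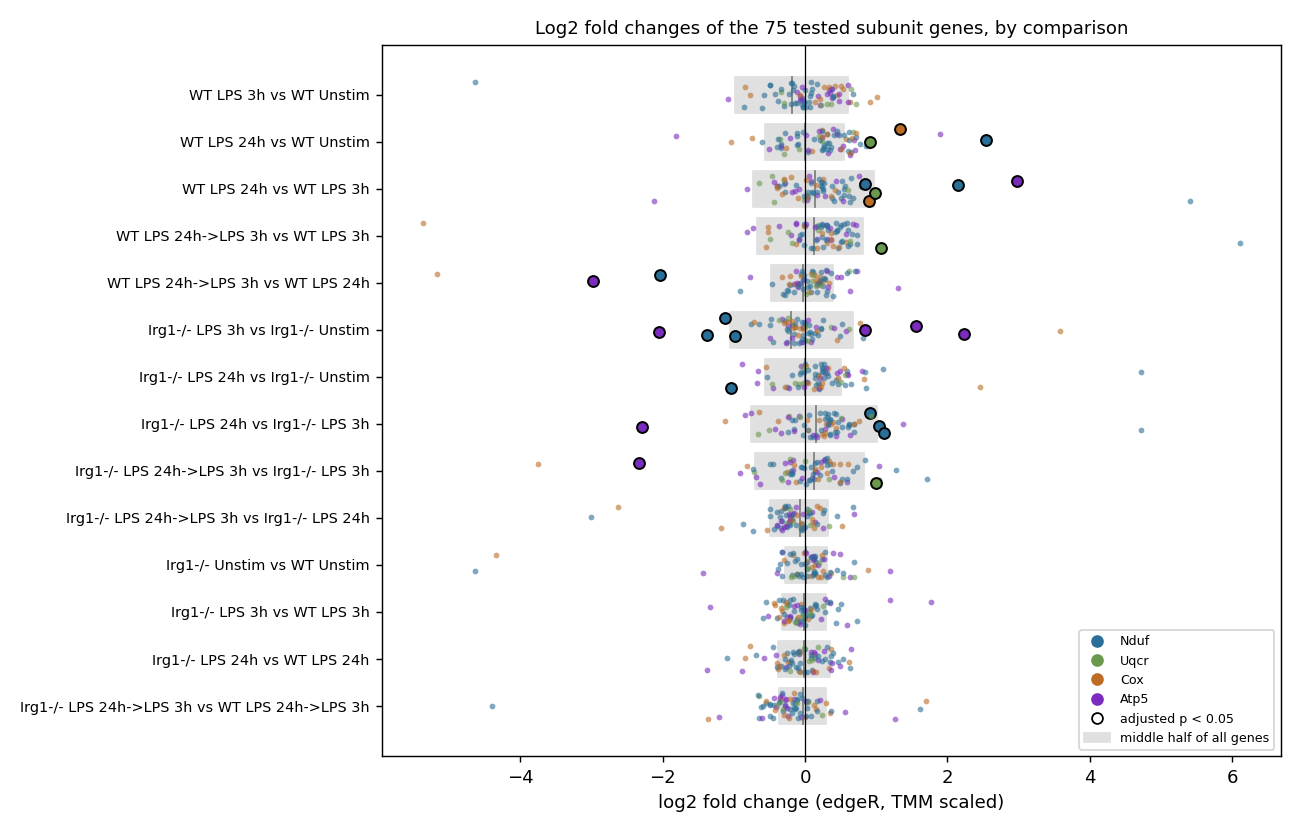
Log2 fold changes (edgeR, TMM scaled) of the 75 tested subunit genes in 14 comparisons, coloured by symbol group. Black rings mark an adjusted p below 0.05, and grey bars run from the lower to the upper quartile of all 11878 genes. Ringed points are 3 and 5 in the WT comparisons of LPS 24h with Unstim and LPS 3h and 7 in Irg1-/- LPS 3h against Unstim, and there are 0 in the 4 comparisons between genotypes.

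All 37 genes with Nduf symbols were tested, and 6 of them were called in some comparison. Most core subunits were not called, with Ndufs1 and Ndufs8 as the exceptions among those described here. Ndufv1, which binds FMN and takes the electrons from NADH, had group means of 18.5 to 29.3 CPM over the 8 groups, and its partner Ndufv2 of 41.9 to 59.1 CPM. Ndufs3, Ndufs7 and Ndufs8 carry or flank the chain of iron-sulphur clusters toward ubiquinone. Ndufs3 had group means of 28.8 to 41.7 CPM and Ndufs7 of 27.0 to 42.7 CPM, with no call for either. Ndufs8 fell in Irg1-/- cells from 20.4, 17.5 and 18.2 CPM in Unstim to 9.58, 10.3 and 8.44 CPM at LPS 3h (log2 fold change -0.98, SE 0.39, adjusted p = 0.048). The 2 groups did not overlap, but the call was lost when any 1 of the 6 cultures was left out (log2 fold change -0.98 to -0.86).

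Ndufs1, the largest core subunit and the site of electron entry beyond FMN, was the core gene called in both genotypes. In WT cells it had 34.1, 31.9 and 30.3 CPM in Unstim, 30.1, 22.3 and 26.0 CPM at LPS 3h and 40.3, 32.1 and 67.5 CPM at LPS 24h. The rise from LPS 3h to LPS 24h was 0.84 (SE 0.31, adjusted p = 0.0398), with no overlap between the groups, and culture 3 was far above the others at 24 h. The Irg1-/- levels went from 19.6, 25.2 and 22.5 CPM to 32.9, 30.3 and 63.0 CPM (0.91, SE 0.31, adjusted p = 0.0243), again with culture 3 on top. Without LPS 24h culture 3 the rise was 0.37 in WT and 0.45 in Irg1-/- cells and was not called in either, and the WT call held in 3 of 8 alternative analyses and with 1 of 6 cultures left out, and exons of Ndufs1 overlap those of Eef1b2 on the other strand.

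Accessory subunits of complex I surround the core and are needed to build or hold it. Ndufb11, a small protein of the membrane arm, gave the most stable fall in the family. Irg1-/- cells had 59.8, 61.0 and 34.7 CPM in Unstim and 15.2, 20.3 and 24.3 CPM at LPS 3h, and stayed low with 24.9, 28.1 and 22.5 CPM at LPS 24h and 22.2, 16.5 and 20.3 CPM in the tolerized cells. The fall at LPS 3h was -1.38 (SE 0.35, adjusted p = 0.00264) and held in all 8 alternatives and with each of the 6 cultures left out, and that at LPS 24h was -1.04 (SE 0.35, adjusted p = 0.0413), called with 1 of 6 cultures left out (-1.24 to -0.92). All 9 Irg1-/- libraries given LPS lay below the 3 unstimulated ones. In WT cells Ndufb11 had 34.1, 34.1 and 45.7 CPM in Unstim and 31.9, 18.3 and 26.8 CPM at LPS 3h, a difference of -0.57 that did not pass the test (adjusted p = 0.218). The genotypes were not shown to differ in this response (difference of log2 fold changes -0.81, adjusted p = 0.931). The Irg1-/- Unstim and LPS libraries came from different sets, and exons of Ndufb11 overlap those of Rbm10 on the other strand.

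Ndufa8, an accessory subunit facing the intermembrane space, moved down and back in Irg1-/- cells. Its levels were 64.3, 41.8 and 28.3 CPM in Unstim, 24.0, 22.1 and 15.1 CPM at LPS 3h and 45.3, 52.0 and 35.2 CPM at LPS 24h. Both steps were called, at -1.13 (SE 0.37, adjusted p = 0.0179) and 1.11 (SE 0.37, adjusted p = 0.0197), and the LPS 3h libraries lay below those of the other 2 groups. The fall was lost without Unstim culture 1 (-0.72) or LPS 3h culture 3 (-0.90), and the rise without LPS 3h culture 2 or 3 or LPS 24h culture 2 (1.08, 0.87 and 0.91). Ndufs6, a zinc-binding subunit put in late in assembly, rose in Irg1-/- cells from 26.3, 12.5 and 14.6 CPM at LPS 3h to 39.8, 41.7 and 29.3 CPM at LPS 24h (1.05, SE 0.40, adjusted p = 0.0415). Its call held in 4 of 8 alternatives and with 2 of 6 cultures left out (0.76 to 1.36).

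Ndufc2, a subunit of the membrane arm, had the largest change of the abundant genes and also the widest spread between cultures. In WT cells it had 105, 83.9 and 73.9 CPM in Unstim, 196, 74.7 and 75.2 CPM at LPS 3h, 141, 441 and 946 CPM at LPS 24h and 102, 164 and 106 CPM in the tolerized cells. The rise from Unstim to LPS 24h was 2.54 (SE 0.59, adjusted p = 0.00208), that from LPS 3h was 2.14 (SE 0.58, adjusted p = 0.0051), and the tolerized cells lay 2.04 below LPS 24h on the log2 scale (log2 fold change -2.04, SE 0.58, adjusted p = 0.0384). The LPS 24h libraries did not overlap with Unstim, but culture 1 lay within the LPS 3h range. Without WT LPS 24h culture 3 the rise from Unstim missed the threshold narrowly (1.69, adjusted p = 0.05005), that from LPS 3h was lost (1.25, adjusted p = 0.107), and so was the difference of the tolerized cells (-1.19, adjusted p = 0.357). In Irg1-/- cells culture 3 was again highest, with 103, 114 and 496 CPM at LPS 24h and 177, 309 and 651 CPM in the tolerized cells. Its within-group standard deviation of log2 CPM was 0.87, against 0.19 for Ndufa10, which had the highest mean level of the complex I genes (234 CPM).

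In complex III, 7 of the 8 genes were tested and 2 were called. Uqcrfs1, the Rieske iron-sulphur protein, had group means of 50.8 to 83.6 CPM, the core subunit Uqcrc2 110 to 180 CPM, and the hinge protein Uqcrh 107 to 131 CPM, and none of these 3 was called in any comparison. Uqcr10, a small subunit added late in assembly, rose in both genotypes. In WT cells it had 35.2, 45.7 and 44.0 CPM in Unstim, 38.3, 37.7 and 25.4 CPM at LPS 3h, 93.7, 76.8 and 29.2 CPM at LPS 24h and 74.6, 100 and 38.4 CPM in the tolerized cells. LPS 24h and tolerized cells were higher than LPS 3h by 0.98 (SE 0.37, adjusted p = 0.0424) and 1.07 (SE 0.37, adjusted p = 0.0326). Culture 3 lay far below cultures 1 and 2 in both late groups, yet within each set the late library was above the early one, by 1.28, 1.02 and 0.19 at LPS 24h. The Irg1-/- levels were 39.0, 28.6 and 30.8 CPM at LPS 3h, 62.1, 74.2 and 51.1 CPM at LPS 24h and 76.2, 71.4 and 48.4 CPM in the tolerized cells. There the groups did not overlap, and the tolerized cells were called higher than LPS 3h (0.99, SE 0.37, adjusted p = 0.0451) while LPS 24h fell just short (0.93, adjusted p = 0.0507). Each of the 3 calls held with 1 of 6 cultures left out, over which the estimates ran from 0.59 to 1.31.

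Uqcrq, another small subunit of complex III, had 47.1, 42.4 and 69.9 CPM in WT Unstim and 116, 117 and 66.5 CPM at LPS 24h. The rise was called (0.91, SE 0.31, adjusted p = 0.0412), but culture 3 at 24 h lay within the Unstim range, and the call held in 4 of 8 alternatives and with 2 of 6 cultures left out (0.74 to 1.13).

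Complex IV gave the most stable rise in the family. Cox5a, a nuclear subunit on the matrix side that joins the first assembly steps, had 79.6, 85.4 and 107 CPM in WT Unstim, 172, 101 and 97.3 CPM at LPS 3h, 233, 218 and 236 CPM at LPS 24h and 157, 238 and 155 CPM in the tolerized cells. All 3 LPS 24h libraries lay above every Unstim and every LPS 3h library, and they came from 3 different sets. Part of an exon of Cox5a overlaps Gm26631, a lncRNA on the other strand, and the strand setting of the counts is not given in the sources used here. The rise from Unstim to LPS 24h was 1.34 (SE 0.31, adjusted p = 0.00211), was 1.39 within set 4, and held in all 8 alternatives and with each of the 6 cultures left out. The rise from LPS 3h was 0.89 (SE 0.31, adjusted p = 0.0251) and went the same way in sets 1, 2 and 4 (0.44, 1.11 and 1.27), but was called with 1 of 6 cultures left out (0.68 to 1.14). Without Irg1, Cox5a had 144, 116 and 63.7 CPM in Unstim, 101, 90.3 and 115 CPM at LPS 3h, 132, 172 and 98.0 CPM at LPS 24h and 161, 158 and 114 CPM in the tolerized cells, and these groups overlapped. At LPS 24h the Irg1-/- libraries all lay below the WT ones (-0.77, unadjusted p = 0.017), but the difference did not pass the adjustment (adjusted p = 0.343), nor did the difference between genotypes in the response from Unstim (-1.02, adjusted p = 0.488).

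No other complex IV gene was called. Cox4i1, the partner of Cox5a in early assembly, had group means of 148 to 257 CPM, Cox5b 37.1 to 59.0 CPM, Cox6c 158 to 247 CPM, Cox7c 204 to 384 CPM and Cox8a 103 to 166 CPM. Several subunits of this complex have forms made mainly in heart, skeletal muscle, lung or testis, and these were near the lower limit of detection. Cox6a2, Cox6b2 and Cox7a1 had mean levels of 0.838, 0.295 and 1.63 CPM, where the widely made forms Cox6a1, Cox6b1 and Cox7a2 had 149, 136 and 123 CPM. These levels count 3′ ends and are not divided by length. Cox4i2, Cox7b2, Cox8b and Cox8c were the 4 untested genes of this group. None of the low forms was called in any comparison, but at these counts a change was hardly detectable, so a shift between isoforms cannot be judged. Cox7a2l, which takes part in joining complexes III and IV into supercomplexes, had group means of 48.9 to 99.2 CPM, highest in WT Unstim, with no call.

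All 17 ATP synthase genes were tested, and 4 were called. The catalytic subunits Atp5a1 and Atp5b had group means of 174 to 321 CPM and 276 to 583 CPM and were not called in any comparison. Atp5b varied as much within groups as between them, with 869, 602 and 279 CPM in the WT tolerized cells. The c-ring genes Atp5g1 and Atp5g2 had mean levels of 2.47 and 0.929 CPM beside 135 CPM for Atp5g3. These 3 genes encode the same mature protein, and how reads shared with copies of a gene were handled beyond the non-unique class is not given in the sources used here.

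The 4 called genes were called mainly in Irg1-/- LPS 3h against Unstim, where no library set holds both groups. Atp5c1, the central stalk subunit that turns within the catalytic head, had 33.5, 47.3 and 55.4 CPM in Unstim and 51.2, 202 and 148 CPM at LPS 3h (1.55, SE 0.37, adjusted p = 0.00148). Culture 1 at LPS 3h, from set 2, lay within the Unstim range, cultures 2 and 3 were both from set 3, and with the set as a term the estimate turned to -0.37. Atp5h, of the peripheral stalk, went from 28.8, 45.0 and 61.5 CPM to 73.9, 111 and 58.4 CPM (0.84, SE 0.32, adjusted p = 0.0422), with overlap, and with library totals as the scale the estimate was -0.06. That call held with 3 of 6 cultures left out (0.61 to 1.18). Atp5l, a subunit of the membrane part that helps dimers form, went from 22.6, 11.9 and 18.6 CPM to 17.4, 28.7 and 205 CPM (2.24, SE 0.56, adjusted p = 0.00205). That change rested on Irg1-/- LPS 3h culture 3, and without it the estimate was 0.43 (adjusted p = 0.475). The same library set the falls of Atp5l from LPS 3h to LPS 24h (-2.29, adjusted p = 0.00166) and to the tolerized state (-2.33, adjusted p = 0.00204), which were -0.50 and -0.49 without it.

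Atp5s, coupling factor B, was a low gene with calls in 3 comparisons. In WT cells it had 1.64, 0.474 and 1.32 CPM at LPS 3h, 3.41, 4.29 and 19.0 CPM at LPS 24h and 0.576, 0.390 and 2.34 CPM in the tolerized cells. The rise to LPS 24h (2.98, SE 0.74, adjusted p = 0.00244) and the lower level in the tolerized cells (-2.97, SE 0.72, adjusted p = 0.013) were both lost without WT LPS 24h culture 3 (1.67 and -1.70, adjusted p = 0.095 and 0.28), and the second also without culture 1 or 2 of the tolerized cells. In Irg1-/- cells Atp5s fell from 7.94, 5.09 and 3.53 CPM in Unstim to 1.54, 0.794 and 1.58 CPM at LPS 3h (-2.05, SE 0.72, adjusted p = 0.026), with no overlap. That fall was called with 1 of 6 cultures left out (-2.26 to -1.64), and with the set as a term the estimate was 0.23.

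**Figure D3:**
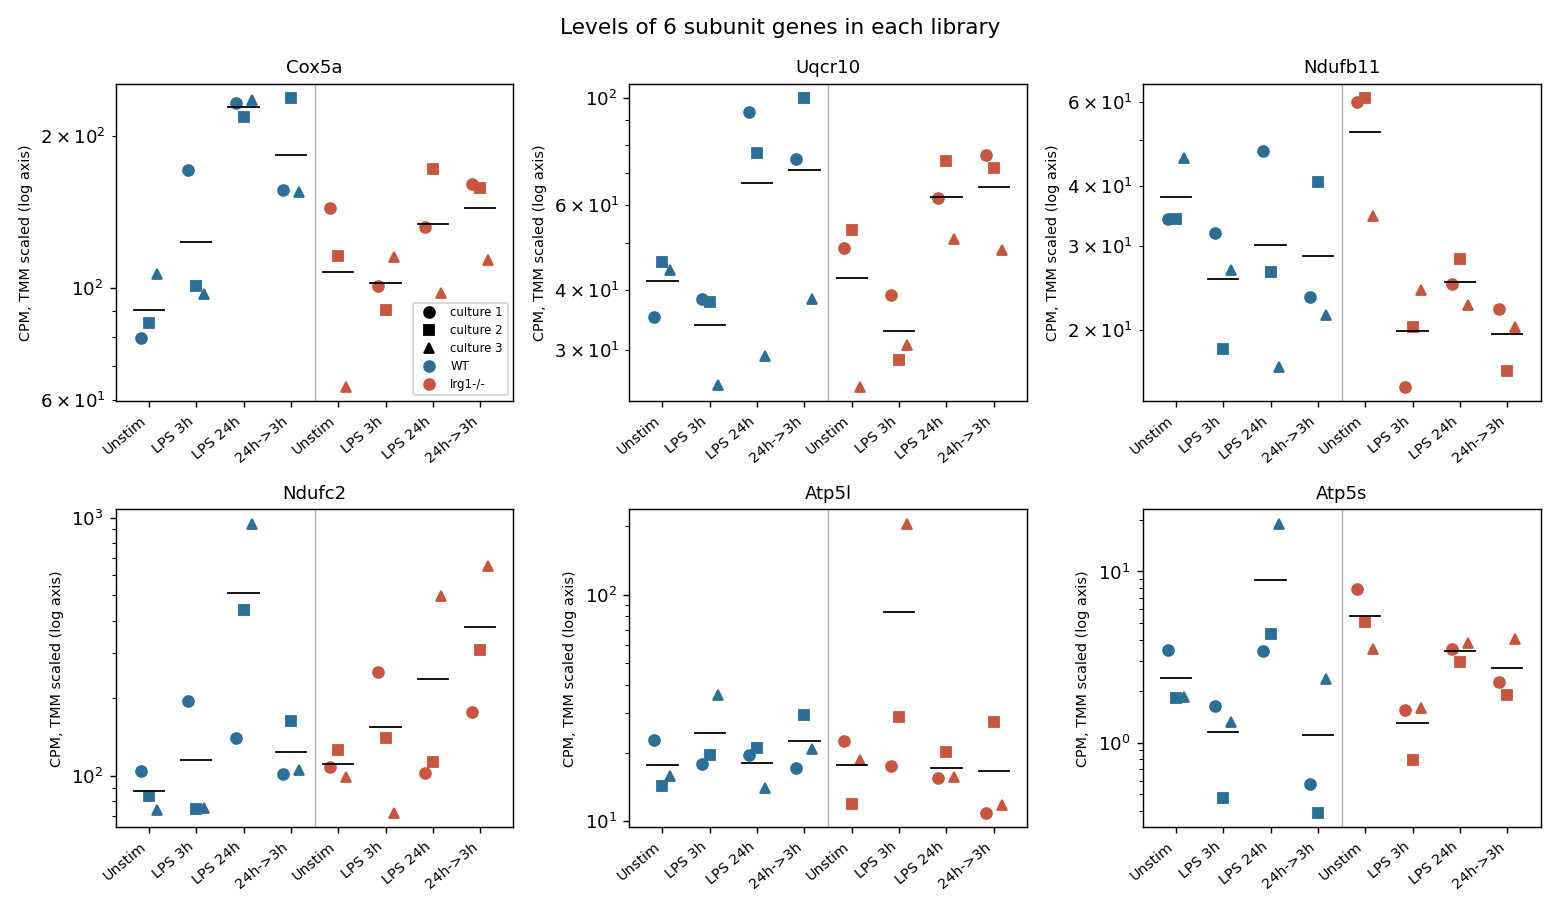
Levels (CPM, TMM scaled, log axis) of Cox5a, Uqcr10, Ndufb11, Ndufc2, Atp5l and Atp5s in each library, with lines at the group means over 3 cultures. The 3 WT LPS 24h libraries of Cox5a sit together at 218 to 236 CPM above the WT Unstim libraries, whereas Ndufc2, Atp5l and Atp5s each have 1 culture 3 library far above the other 2 of its group (946, 205 and 19.0 CPM).

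A paralog outside the symbol rule moved far more than any subunit. Ndufa4, first named as a complex I gene, encodes a subunit of complex IV, and AA467197 (NMES1) encodes a related small protein known to be induced by inflammatory signals and to take the place of NDUFA4 in complex IV. Ndufa4 stayed at group means of 117 to 137 CPM in all 8 groups and was not called in any comparison. AA467197 had 4.70, 2.67 and 2.58 CPM in WT Unstim and 513, 1166 and 447 CPM at LPS 3h, a rise of 7.73 (SE 0.47, adjusted p = 2.56e-14). At WT LPS 24h it had 195, 257 and 240 CPM, still 6.11 above Unstim (SE 0.44, adjusted p = 3.93e-12), and in the tolerized cells 268, 283 and 257 CPM. The Irg1-/- libraries gave 3.12, 2.07 and 3.69 CPM in Unstim, 702, 876 and 635 CPM at LPS 3h, 148, 64.8 and 59.4 CPM at LPS 24h and 304, 247 and 187 CPM in the tolerized cells. In both genotypes the unstimulated libraries lay far below all others. At LPS 24h the 3 Irg1-/- libraries lay below the 3 WT libraries by 1.35 on the log2 scale, which did not pass the test (log2 fold change -1.35, adjusted p = 0.0754). Thus the mRNA of the paralog exceeded that of Ndufa4 in each LPS library of WT cells, in counts of 3′ ends not divided by length, and lay below it in every unstimulated library. In Irg1-/- cells it exceeded Ndufa4 in all LPS 3h and tolerized libraries, but at LPS 24h in culture 1 and not in cultures 2 and 3 (64.8 and 59.4 CPM, beside 140 and 90.6 CPM of Ndufa4).

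**Figure D4:**
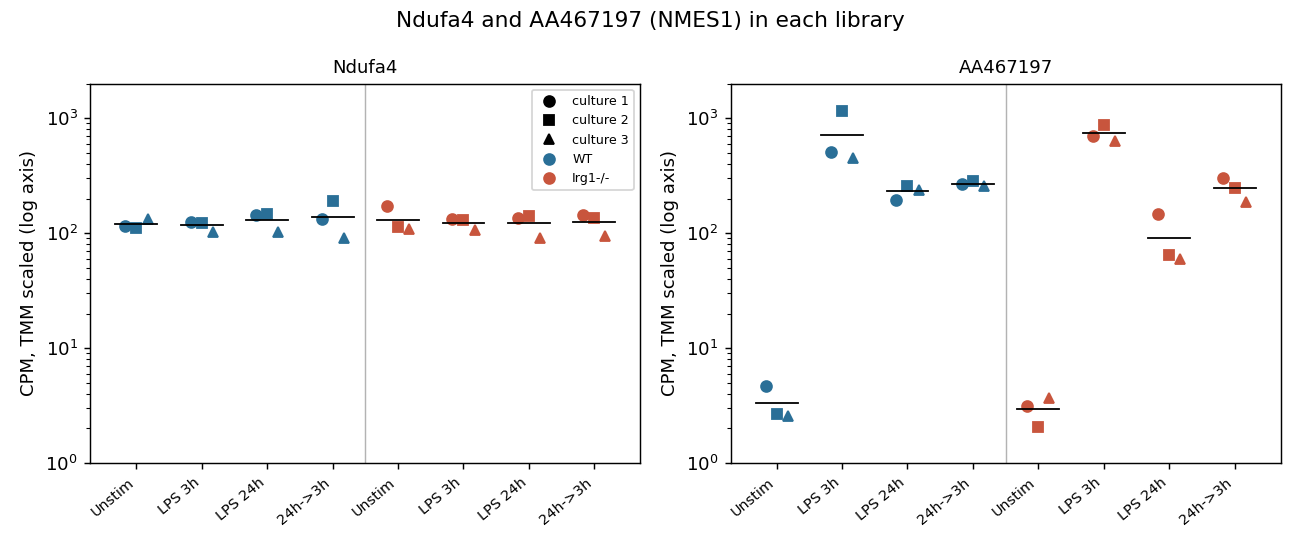
Levels (CPM, TMM scaled, log axis) of Ndufa4 and its paralog AA467197 in each library, with lines at the group means over 3 cultures. Ndufa4 group means stay between 117 and 137 CPM, while AA467197 goes from at most 4.70 CPM in unstimulated libraries to 447 CPM or more at LPS 3h in both genotypes.

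The loss of Irg1 was asked about at each state, and no subunit was called. At Unstim 0.0337% of all genes were higher and 0.00842% lower in Irg1-/- cells, and at LPS 3h 0% and 0.00842%. At LPS 24h 0.101% were higher and 0.497% lower, and in the tolerized cells 0.0253% and 0.0926%. The background was thus itself close to 0, so an absence of called subunits does not set them apart from other genes. Of 300 tests of a subunit between genotypes, 8 had an unadjusted p below 0.05, the smallest adjusted p from edgeR was 0.343, and DESeq2 called 0. The median subunit differed by 0.10 at Unstim, -0.06 at LPS 3h, -0.06 at LPS 24h and -0.21 in the tolerized cells on the log2 scale. Within the sets that hold both genotypes the medians were 0.08 at Unstim and 0.05 at LPS 3h, with 29 and 31 of 75 subunits below 0. At LPS 24h the median was -0.37 (set 1, with 61 of 75 subunits below 0 and all genes at -0.09). In the tolerized cells it was -0.29 in set 1 (59 of 75 below 0, all genes at -0.05). In set 2 it was -0.50 there (65 of 75 below 0, all genes at -0.07). After LPS these values rest on 1 WT library a set. With a median SE of 0.35 and 3 cultures a side, differences of the size of these medians were not detectable for single genes.

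The responses to LPS were compared between genotypes in the same way. The share of all genes called was 0.00842% for LPS 3h against Unstim, 0.21% for LPS 24h against Unstim, 0% for LPS 24h against LPS 3h, 0% for tolerized against LPS 3h and 0.00842% for tolerized against LPS 24h. Over 375 such tests of subunits by edgeR 14 had an unadjusted p below 0.05, none passed the adjustment, and DESeq2 called 0. The smallest adjusted p, 0.239, was that of Ndufc2 for tolerized cells against LPS 24h, where the log2 fold change was 2.71 higher in Irg1-/- cells. Calls seen in 1 genotype alone are therefore not shown to be particular to it.

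The start regions of the genes are shown because nuclear genes of this pathway are known to share binding sequences of NRF1, of the ETS factor GABP and of YY1 near their start sites. RefSeq windows of 300 bases (250 before and 50 after the start, GRCm38.p6) were matched for 65 of 80 members, and 3 sequences were searched on both strands with no mismatch: GCGCATGC for NRF1, CCGGAAG for ETS factors and ATGGCGG for YY1. The NRF1 letters were in 9 member windows (13.85%), in 3.049% of the windows of all 27025 genes and in 6.047% of those of 9360 tested genes. The ETS letters were in 14 (21.54%, against 9.928% and 20.67%) and the YY1 letters in 10 (15.38%, against 4.692% and 9.733%). Any of the 3 was in 28 member windows (43.08%), in 15.8% of all and in 32% of tested genes. The ETS share was thus near that of other tested genes. A gene from each complex with a match and the genes Cox5a and AA467197, called higher at LPS 24h, are printed from 5′ to 3′ with the matched letters in capitals.

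Ndufs3 (GRCm38.p6, chr2:90904672-90904971, minus strand): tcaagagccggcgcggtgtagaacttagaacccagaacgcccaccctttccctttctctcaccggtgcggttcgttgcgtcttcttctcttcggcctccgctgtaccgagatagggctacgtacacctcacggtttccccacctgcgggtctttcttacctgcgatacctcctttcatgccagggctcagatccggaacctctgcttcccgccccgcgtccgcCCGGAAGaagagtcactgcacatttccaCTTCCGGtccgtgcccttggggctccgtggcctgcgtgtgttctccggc

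Uqcr11 (GRCm38.p6, chr10:80406772-80407071, minus strand): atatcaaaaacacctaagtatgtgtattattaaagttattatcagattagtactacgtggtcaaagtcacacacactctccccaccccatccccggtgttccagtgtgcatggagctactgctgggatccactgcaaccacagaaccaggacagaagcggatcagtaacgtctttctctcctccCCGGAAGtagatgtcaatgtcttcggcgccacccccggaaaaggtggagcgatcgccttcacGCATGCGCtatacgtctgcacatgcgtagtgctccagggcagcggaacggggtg

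Cox6a1 (GRCm38.p6, chr5:115348909-115349208, minus strand): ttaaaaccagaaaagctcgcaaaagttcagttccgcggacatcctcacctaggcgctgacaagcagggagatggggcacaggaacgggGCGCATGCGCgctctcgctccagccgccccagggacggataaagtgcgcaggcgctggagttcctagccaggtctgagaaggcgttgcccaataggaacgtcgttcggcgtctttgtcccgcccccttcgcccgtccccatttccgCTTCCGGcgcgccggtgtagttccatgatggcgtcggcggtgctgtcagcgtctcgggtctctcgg

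Atp5b (GRCm38.p6, chr10:128083057-128083356, plus strand): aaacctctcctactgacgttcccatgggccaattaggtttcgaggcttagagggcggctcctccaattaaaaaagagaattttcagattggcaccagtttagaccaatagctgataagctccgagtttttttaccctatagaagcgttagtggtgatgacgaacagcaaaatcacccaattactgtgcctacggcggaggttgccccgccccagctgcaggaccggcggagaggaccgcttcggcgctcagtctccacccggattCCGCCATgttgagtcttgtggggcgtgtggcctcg

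Cox5a (GRCm38.p6, chr9:57520982-57521281, plus strand): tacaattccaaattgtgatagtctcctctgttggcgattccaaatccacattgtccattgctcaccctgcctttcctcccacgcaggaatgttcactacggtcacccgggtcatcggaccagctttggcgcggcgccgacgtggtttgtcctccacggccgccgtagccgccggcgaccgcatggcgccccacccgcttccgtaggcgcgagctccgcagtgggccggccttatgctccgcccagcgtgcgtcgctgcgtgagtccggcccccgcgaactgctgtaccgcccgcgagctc

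AA467197 (GRCm38.p6, chr2:122637637-122637936, plus strand): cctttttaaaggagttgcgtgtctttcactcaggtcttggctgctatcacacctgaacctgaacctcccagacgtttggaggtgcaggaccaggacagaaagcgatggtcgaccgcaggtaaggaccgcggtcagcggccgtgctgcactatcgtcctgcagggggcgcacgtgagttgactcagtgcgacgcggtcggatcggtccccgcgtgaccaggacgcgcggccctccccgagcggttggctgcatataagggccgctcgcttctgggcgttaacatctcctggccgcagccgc

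Ndufs3 held the ETS letters on both strands, close to its start. Uqcr11 held an NRF1 and an ETS match. In Cox6a1 the capitals of the first run join overlapping NRF1 matches on the opposite strands, and the second run is an ETS match. The YY1 match of Atp5b lay 16 bases after the start. Neither Cox5a nor AA467197 held any of these letters in its window, which says nothing of letters elsewhere or of a factor's binding.

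Other genes of the pathway were counted in the same way, with no test between lists. The symbol rule left out 9 subunits and partners, the 4 genes of complex II and Cyc1 and Ndufab1 included. Of these, AA467197 and Cycs were called higher at WT LPS 3h and none lower (all genes, 15.8% and 16.3%). Atpif1, the inhibitor that keeps the ATP synthase from running backward, fell at WT LPS 24h against Unstim (-1.14, SE 0.27, adjusted p = 0.0031) and against LPS 3h (-0.96, SE 0.27, adjusted p = 0.00755). It also fell from LPS 3h to LPS 24h in Irg1-/- cells (-0.76, SE 0.27, adjusted p = 0.029).

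Of 44 tested assembly factors, which insert cofactors and join subunits but are not part of the finished complexes, 5 were higher and 8 lower at WT LPS 3h against Unstim (11.4% and 18.2%, near the 15.8% and 16.3% of all genes). From LPS 3h to LPS 24h 13 were higher and 0 lower (29.5% and 0%, against 16.8% and 15.5% of all genes, with a median of 0.69 against 0.14). The Irg1-/- counts were 5 and 9 (11.4% and 20.5%, against 17% and 18.9% of all genes). They were then 13 and 2 (29.5% and 4.55%, against 18.2% and 16.9% of all genes). Tmem126b, of the complex I assembly complex, fell at WT LPS 3h (-3.13, adjusted p = 1.65e-07) and rose again to LPS 24h (3.06, adjusted p = 4.98e-07). Coa6, which serves copper delivery to complex IV, did likewise, at -3.05 (adjusted p = 0.000709) and 3.02 (adjusted p = 0.00101). Taco1, a translational activator of the mitochondrial mRNA of a complex IV core subunit, rose from LPS 3h to LPS 24h by 3.59 with a wide error (SE 1.29, adjusted p = 0.0325), and the smallest called rises were those of Coa3, Cox14 and Ndufaf4 (0.90, 0.99 and 1.04). With library totals as the scale the assembly factors gave 0 higher and 22 lower at WT LPS 3h, and 23 higher and 0 lower from LPS 3h to LPS 24h. On that scale 6856 and then 5503 of all 11878 genes were called in either direction.

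The mitochondrial ribosome makes the subunits that mitochondrial DNA encodes. Of its 76 tested genes 3 were higher and 10 lower at WT LPS 3h (3.95% and 13.2%, below the 15.8% and 16.3% of all genes). From LPS 3h to LPS 24h 17 were higher and 2 lower (22.4% and 2.63%, against 16.8% and 15.5% of all genes, with a median of 0.50). The Irg1-/- counts were 6 and 11 (7.89% and 14.5%, against 17% and 18.9% of all genes). They were then 21 and 2 (27.6% and 2.63%, against 18.2% and 16.9% of all genes). Mrpl28, Mrpl40 and Mrpl2 fell at WT LPS 3h (-1.53, -1.37 and -1.68 on the log2 scale) and rose to LPS 24h (2.09, 1.98 and 1.97). Mrpl52 and Mrpl22 went the other way, higher at LPS 3h (2.71 and 2.30) and lower again at LPS 24h (-1.14 and -1.72). With library totals the WT counts became 2 higher and 49 lower, then 46 higher and 1 lower (all genes in either direction, 6856 and then 5503 of 11878).

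On the TMM scale, several subunits encoded by mitochondrial DNA were lower at LPS 24h than at LPS 3h. Of 13 tested, 0 were called higher and 9 lower in WT cells (median -1.19, against 0.14 for all genes, of which 15.5% were lower), among them the complex I genes mt-Nd5 (-1.81), mt-Nd3 (-1.64) and mt-Nd2 (-1.63). Without WT LPS 24h culture 3 the count was 5 and the median -0.89, and with library totals 3 and -0.52 (all genes, 5503 of 11878 called in either direction, median 0.78). Their share of gene counts was 2.83% in WT Unstim, 1.79% at LPS 3h, 1.50% (0.709 to 2.08%) at LPS 24h and 2.27% in the tolerized cells. WT cultures 1, 2 and 3 had 1.87, 1.69 and 1.81% at LPS 3h, and 2.08, 1.72 and 0.709% at LPS 24h. The lower mean share at WT LPS 24h thus rested on culture 3. In Irg1-/- cells 0 were higher and 5 lower (median -0.80, against 0.15 for all genes, of which 16.9% were lower). With library totals 1 was higher and 0 lower in Irg1-/- cells (median -0.07), so that the direction there depended on the scale. All genes had 6146 of 11878 called in either direction there, with a median of 0.88. The mean share of gene counts in Irg1-/- cells was 1.84% at LPS 3h and 2.20% at LPS 24h. The difference between the nuclear and the mitochondrial subunits was not tested.

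Of 13 tested regulators of mitochondrial biogenesis, 6 rose and 1 fell at WT LPS 3h on the TMM scale (all genes, 15.8% and 16.3%). Hif1a (3.33), Ppargc1b (2.06), Gabpb1 (1.81), Pprc1 (1.52), Gabpa (1.20) and Nrf1 (0.88) were higher and Polrmt, the mitochondrial RNA polymerase, was lower (-1.77). From LPS 3h to LPS 24h 0 rose and 6 fell (all genes, 16.8% and 15.5%), led by Myc (-3.06), Gabpb1 (-1.56) and Ppargc1b (-1.44). The Irg1-/- counts were 6 and 3 (all genes, 17% and 18.9%), then 2 and 5 (all genes, 18.2% and 16.9%). With library totals the WT counts turned to 2 higher and 4 lower, then 4 higher and 2 lower, so the balance of this list depended on the scale. All genes called in either direction were then 6856 and 5503 of 11878.

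**Figure D5:**
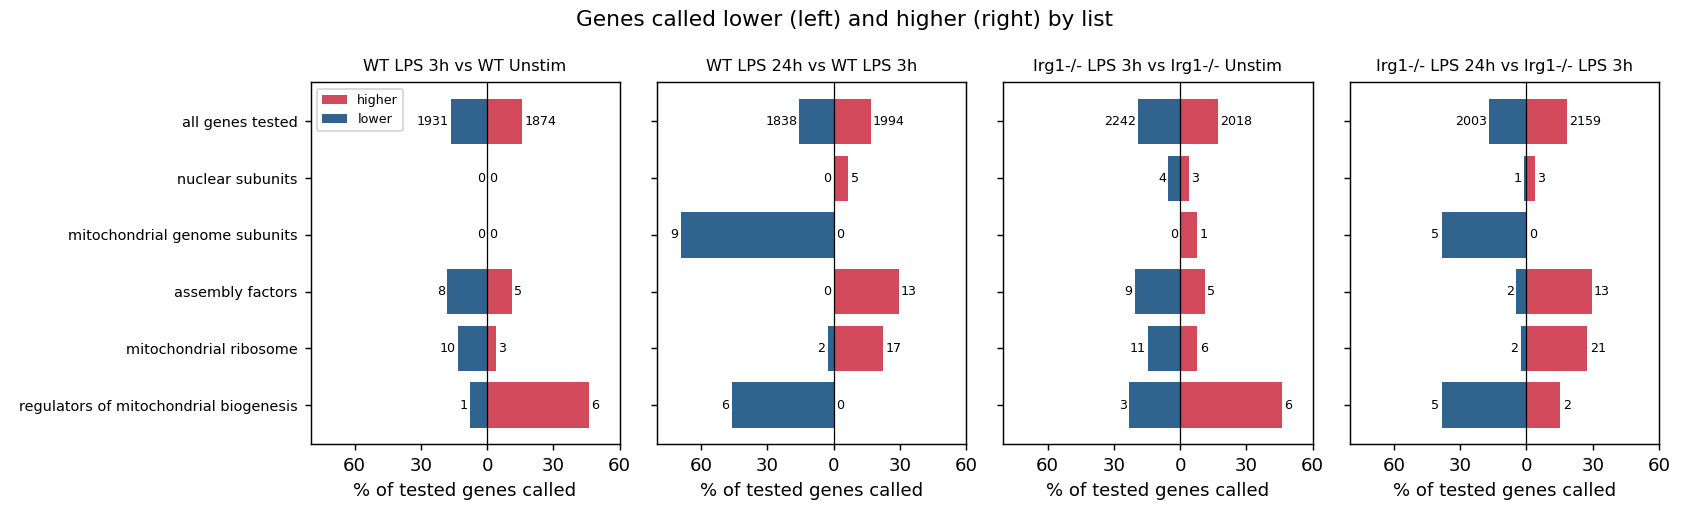
Percent of tested genes called lower (left, blue) and higher (right, red) in 4 comparisons for all genes, the nuclear subunits and 4 other lists, with the number of genes called beside each bar (edgeR, TMM scaled, adjusted p below 0.05). The nuclear subunits have 0 to 5 calls a side, fewer in percent than all genes, while 9 of 13 mitochondrial genome subunits are lower and 13 of 44 assembly factors higher at WT LPS 24h against LPS 3h.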

How the data were processed

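RNA of 24 BMDM cultures was made into 3′-end libraries with 12 PCR cycles and no molecular identifiers, so counting error covers only part of the error. According to the deposited labels, reads were aligned with STAR to mm10. The authors deposited raw counts per gene, and the counting program, annotation and strand setting are not given in the sources used here. Gene counts made up 48.03 to 59.39% of each column. The 5 summary lines (22.12 to 33.67% without a feature, 0.2541 to 0.4406% ambiguous and 15.07 to 22.52% not uniquely aligned) entered neither library sizes nor tests. Every column was used (0 left out). Of 22165 gene IDs, 21745 matched GENCODE M21.

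All 24 libraries were fitted together with edgeR 4.0.16 in R 4.3.3 (filterByExpr, TMM, quasi-likelihood F-test, 16 residual degrees of freedom), with Benjamini-Hochberg adjustment over 11878 genes and a threshold of 0.05. The standard error (SE) is the log2 fold change divided by the root of F. Levels are TMM-scaled CPM, and log2 CPM used a prior count of 2. DESeq2 1.42.0, other scalings and filters, a library set term, a replicate block and leaving out each culture were the alternatives. The code was tested on simulated data. Tables and figures were made with Python 3.11.15, pandas 2.3.3 and matplotlib 3.10.9. Named genes were up to 3 highest and 3 lowest among the called members of each comparison, fixed lists of core subunits and tissue forms, the highest member of each complex, the untested members, AA467197 and Acod1, and of other lists up to 3 a side called at WT LPS 24h against LPS 3h. Uqcrh, Cox6c, the c-ring genes, Cycs and the regulators at LPS 3h were added after their values were seen. One core subunit of that list is not reported here. The members and lists were chosen with earlier results of these data known. Over all genes tested, 0 of 14 pairs of groups had every correlation between same-numbered cultures above 0.1 (range -0.11 to 0.31). By that rule the fit without a block is the one reported. The rule does not show that cultures were unpaired, and culture 3 had the lowest median subunit in 7 of 8 groups. P-values measure the spread between cultures.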

Additional observations from a re-analysis of the deposited data

How the results depend on the processing

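The scale decided most. With library totals alone, the number of subunits called was 38 for WT LPS 3h against Unstim (all lower), 36 for WT LPS 24h against LPS 3h (all higher), 24 for WT tolerized against LPS 3h, and in Irg1-/- cells 52, 48 and 21 in the same comparisons and 2 for LPS 24h against Unstim, as the median of all genes moved by construction. The calls over all genes on that scale were, in the same order, 6856, 5503, 4375, 6883, 6146, 4886 and 1697 of 11878, beside 75 tested subunits. DESeq2 size factors gave 3 for WT LPS 24h against LPS 3h (all genes, 3770 of 11878). With the library set as a term the WT counts were 8 for LPS 3h against Unstim (0 higher, 8 lower) and 8 for LPS 24h against Unstim (3 higher, 5 lower). They were 8 for LPS 24h against LPS 3h (6 higher, 2 lower), and 2 and 1 for tolerized against LPS 3h and LPS 24h. In Irg1-/- cells they were 2 for LPS 24h against Unstim, 0 for LPS 24h against LPS 3h and 1 for tolerized against LPS 3h. All genes called in these fits numbered, in the same order, 3864, 1890, 4064, 3162, 493, 1143, 1771 and 1407 of 11878. Among libraries given LPS, set 4 held WT culture 3 alone, so the set term cannot be told apart from that culture. Fits of the 2 compared groups alone gave WT counts of 2 (LPS 3h against Unstim), 2 (LPS 24h against LPS 3h), 0 and 0 (tolerized against LPS 3h and LPS 24h). In Irg1-/- cells they gave 4 (LPS 3h against Unstim) and 6 (tolerized against LPS 3h). All genes called in the WT fits were 3940 of 10875, 2999 of 10430, 2233 of 10272 and 109 of 10375 in turn. In the Irg1-/- fits they were 3258 of 10507 and 3423 of 10567. The DESeq2 Wald test gave 2 for WT LPS 3h against Unstim and 1 for WT tolerized against LPS 24h (all genes, 4135 and 766 of 11878). A minimum mean of 10 counts gave 1 for WT LPS 3h against Unstim and 3 for WT LPS 24h against LPS 3h (all genes, 3738 and 3743 of 10786). Without a filter the counts were 1 for WT LPS 3h against Unstim, 2 for Irg1-/- LPS 24h against Unstim and 5 for Irg1-/- tolerized against LPS 3h. They were 1 each for the genotypes at LPS 3h, the genotypes in the tolerized state, and the genotype difference in the tolerized response from LPS 3h and from LPS 24h. All genes called there were 3794, 1742, 3281, 32, 133, 68 and 170 of 16009 in turn. The cause of these moves was not tested.

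A replicate block was also fitted, although the numbers were not shown to pair the cultures (correlations of -0.11 to 0.31). It gave 2 for WT LPS 3h against Unstim, 1 for WT tolerized against LPS 24h and 5 for Irg1-/- tolerized against LPS 3h. All genes called there were 4046, 517 and 3457 of 11878 in turn. The block kept the other counts of subunits within 1.5 times.

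Leaving out 1 culture at a time gave 0 to 2 for WT LPS 3h against Unstim, 2 to 3 for WT LPS 24h against Unstim, 2 to 4 for WT LPS 24h against LPS 3h, and 0 to 2 for WT tolerized cells against each of LPS 3h and LPS 24h. In Irg1-/- cells it gave 3 to 6, 0 to 2, 1 to 4 and 0 to 4 in the first 4 of these comparisons, and 0 to 0 for the other comparisons. The direction turned for Atp5c1 (-0.37) and Atp5s (0.23) with the set as a term and for Atp5h (-0.061) with library totals. These were all in Irg1-/- LPS 3h against Unstim. Of the other values for the called subunits and for AA467197, 351 kept direction and side of the threshold while 122 lost the call. AA467197 is not a subunit and was not counted apart, so these numbers do not give the stability of the subunit calls alone. With 3 cultures a group and a median SE of 0.35, changes of single subunits well under 1 on the log2 scale were mostly out of reach.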
